A study of Mus musculus with 18 samples.

Results

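Leucine and serine tRNAs are the main tRNAs of the mouse that carry a long variable arm. The genes described here were all rows of the count table annotated as tRNA with a leucine or serine anticodon, except LeuCAA, whose genes hold an intron. This choice gave 50 of 435 tRNA rows, in a table of 6017 RNA rows, with 26 leucine genes (8 LeuAAG, 10 LeuCAG, 5 LeuTAA and 3 LeuTAG) and 24 serine genes (9 SerAGA, 3 SerCGA, 8 SerGCT, 1 SerGGA and 3 SerTGA). The letters after the amino acid are the anticodon as encoded in DNA, and an isoacceptor is the set of genes that share it. Small RNA had been sequenced from extracellular vesicles (EV) and from the dendritic cells (DC) that released them. The DC were grown from bone marrow of adult C57BL/6 mice in GM-CSF-containing medium conditioned by NIH 3T3 cells. They were left untreated (control), exposed to LPS, an outer-membrane component of bacteria that activates DC, for 24 h, or cultured with VitD3 at 10 nM over 12 days, which gives DC a tolerance-promoting state. Each of the 6 groups (control-EV, LPS-EV, VitD3-EV, control-DC, LPS-DC and VitD3-DC) had 3 replicates, which the study describes as experiments on different days, giving 18 libraries. All cultures received medium from which vesicles of serum and of the NIH 3T3 cells had been largely but not fully removed, and the part of such carry-over in the EV values was not tested.

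In a tRNA, the variable arm lies between the anticodon arm and the T arm. In most tRNAs it is a short loop, whereas in leucine, serine and selenocysteine tRNAs it forms a stem of its own, and seryl-tRNA synthetase grips this stem and does not read the anticodon. Serine codons fall into separate boxes, of which SerAGA, SerCGA and SerTGA read the TCN codons and SerGCT reads AGC and AGT. LeuAAG, LeuCAG and LeuTAG read the CTN codons, and LeuTAA reads TTA and TTG. tRNA and fragments cut from it are common in EV preparations, and the position of the cut within a tRNA is not visible in a table of gene counts.

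The gene sequences show how alike the members are and why reads are hard to assign to single genes. RefSeq lists 42 nuclear genes of these isoacceptors other than SerGGA on GRCm38.p6, the build called mm10, and all are 82 to 83 bases long. By comparison, the 355 nuclear RefSeq genes of other anticodons except LeuCAA had a median length of 72 bases. The label of a long arm did not hold for 2 members. The single SerGGA gene on chromosome 11 is 73 bases long, and the mitochondrial LeuTAA gene is 75 bases long. The following sequences were read from GENCODE M21 transcripts or, for n-TLaag4, from a RefSeq promoter window, and their names and positions are those of RefSeq. They are printed 5′ to 3′ as DNA, with the anticodon and, further on, the variable arm in capitals.
SerAGA, n-TSaga9, chr4:10874064-10874145, + strand: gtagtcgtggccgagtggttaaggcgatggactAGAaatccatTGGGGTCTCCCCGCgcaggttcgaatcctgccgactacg
SerTGA, n-TStga1, chr13:23518146-23518227, + strand: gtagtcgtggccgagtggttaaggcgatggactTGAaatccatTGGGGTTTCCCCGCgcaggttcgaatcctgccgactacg
SerGCT, n-TSgct5, chr13:22050686-22050767, − strand: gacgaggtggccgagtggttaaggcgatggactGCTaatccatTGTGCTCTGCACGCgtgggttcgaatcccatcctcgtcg
LeuAAG, n-TLaag4 without its first 11 bases, chr7:120917528-120917598, + strand: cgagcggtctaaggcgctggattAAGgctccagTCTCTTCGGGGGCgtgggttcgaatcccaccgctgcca
LeuTAA, n-TLtaa3 without its last 3 bases, chr10:12922574-12922653, − strand: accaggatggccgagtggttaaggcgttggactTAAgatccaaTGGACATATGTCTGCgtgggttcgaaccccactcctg
Mitochondrial LeuTAA, TrnL1, chrM:2676-2750, + strand: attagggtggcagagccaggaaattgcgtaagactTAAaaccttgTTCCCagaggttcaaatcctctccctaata

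The variable arm held 14 bases in the 3 serine genes, 13 in n-TLaag4, 15 in n-TLtaa3 and 5 in the mitochondrial gene. The SerAGA and SerTGA genes shown were identical at 80 of 82 bases, including all 33 bases before the anticodon. The SerAGA and SerGCT genes shown were identical at 62 of 82 bases, and at 29 of the 33 bases before the anticodon. A read from the first part of these SerAGA and SerTGA genes therefore cannot be told apart. n-TSaga9 is the gene of the count row chr4.tRNA16-SerAGA, n-TLaag4 that of chr7.tRNA561-LeuAAG and n-TLtaa3 that of chr10.tRNA1326-LeuTAA. The SerTGA and SerGCT genes printed could not be matched to single rows, because chromosome 13 holds 2 SerTGA and 4 SerGCT genes.

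Of the 50 rows, 43 held reads in at least 1 library and 7 stood at 0 in all 18. The rows at 0 were 3 LeuAAG, 2 SerAGA and 2 LeuTAA rows. For 6 of them RefSeq has no tRNA gene with that anticodon on that chromosome, and the seventh was the mitochondrial LeuTAA row. All 43 rows with reads had RefSeq genes of their chromosome and anticodon. Chromosome 13, where a large group of mouse tRNA genes lies among the histone genes, held 16 members. SerGGA had 2 reads over all EV and 5 over all DC libraries and was not tested.

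The reads behind these genes were few. An EV library held 666 to 2007 reads of the members among 133711 to 2326623 tRNA reads, and a DC library 9179 to 19798 among 7514401 to 13181561. Most isoacceptors thus rest on far fewer reads in EV than in cells. The EV libraries of LPS replicate 2 and VitD3 replicate 3 had the fewest tRNA reads (133711 and 276631). Replicate 3 was sequenced in run 2 in every group, as was VitD3-DC replicate 2, and the other libraries in run 1. Of 6 microRNAs taken as haematopoietic and myeloid markers, 5 (such as miR-223-3p and miR-142a-5p) had reads in every library, and miR-150-5p, a lymphocyte microRNA, was at 0 in all EV libraries and 6 DC libraries. The 6 together took 0.433 to 3.13% of the microRNA reads in EV and 0.324 to 1.65% in DC. Muscle microRNAs (miR-1a-3p, miR-133a-3p and miR-206-3p) took 6.67 to 7.41% in the EV of replicate 3 against 0.00156 to 0.0119% in the other EV libraries. In cells they took 0.362 to 0.748% in replicate 3 and 0 to 0.0203% in the other DC libraries, and their part in the tRNA values was not tested. The liver, erythroid, stromal and epithelial markers took at most 0.039% of the microRNA reads in any library.

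Levels are given as RPM, the number of reads for each 1000000 tRNA reads of a library. The relative abundance of the Leu and Ser genes among tRNA reads was low. It was 0.117% ± 0.0682 (SD, n = 3) in control-EV, 0.234% ± 0.229 in LPS-EV and 0.156% ± 0.0876 in VitD3-EV. In cells it was 0.116% ± 0.0636 in control-DC, 0.141% ± 0.0395 in LPS-DC and 0.147% ± 0.0277 in VitD3-DC. EV and cells overlapped widely, with 0.073 to 0.498% in EV and 0.07 to 0.189% in DC, and the share was higher in EV in 5 of the 9 pairs of EV and cells of the same treatment and number. The mean ratio of EV to cells was 1.07-fold, and an exact sign-flip test over the 9 pairs (two-sided, smallest possible p 0.00391) gave p = 0.793. The highest value, 0.498%, came from LPS-EV replicate 2, the smallest library, and without replicate 2 the mean log2 ratio of EV to cells changed from 0.094 to -0.25. For the 6 treatment contrasts two-sided exact permutation tests gave p = 0.4 to 0.9, where 3 against 3 cannot go below 0.1. Adjusted over these 7 tests by Benjamini-Hochberg, the exact p-values were 0.875 to 0.9, so a difference in the summed share of tRNA reads was not detectable with this spread. The size of the ratio depended on what the reads were set against. It was 1.21-fold as a share of all counted reads (exact p = 0.297), 1.61-fold as a share of all counted reads other than rRNA (exact p = 0.0586, higher in EV in 6 of 9 pairs) and 1.504-fold as a share of tRNA reads other than GluCTC and GlyGCC (exact p = 0.102, 7 of 9 pairs). For the serine genes alone it was 1.26-fold among tRNA reads and 1.90-fold among reads other than rRNA (exact p = 0.0273, 7 of 9 pairs). Over the 12 such tests of EV against cells the lowest adjusted p was 0.234.

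**Figure D1:**
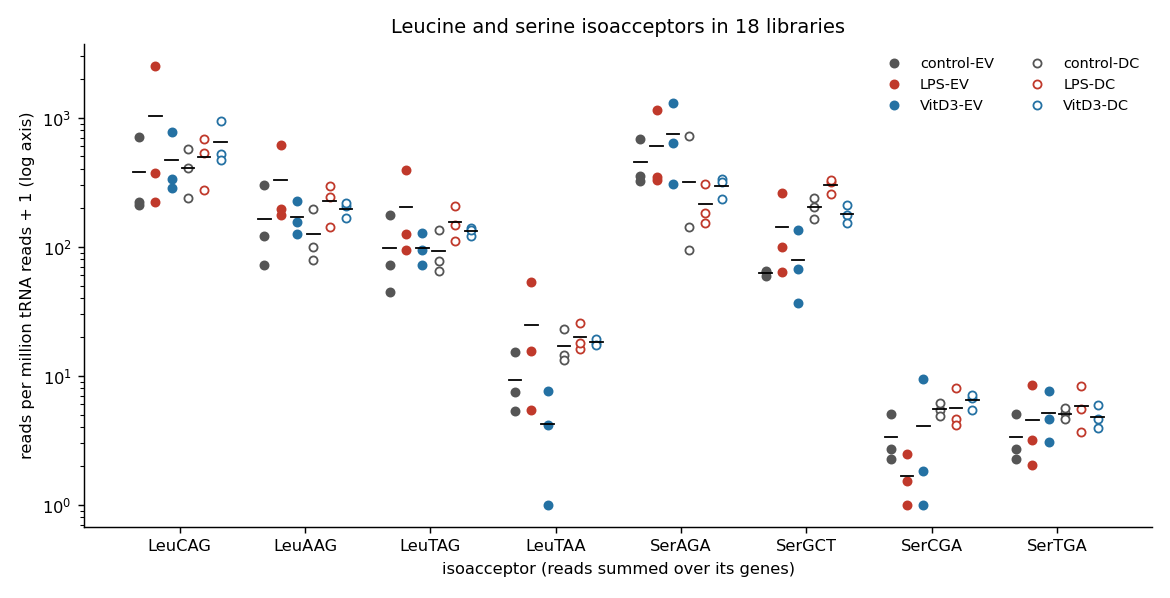
RPM (plus 1, on a log axis) for the 8 isoacceptors with enough reads, with 1 point per library, filled for EV and open for cells, and a bar at each group mean (n = 3). SerAGA lies higher and SerGCT lower in most EV libraries than in the cells, while LeuTAA, SerCGA and SerTGA are near the lower end in all groups.

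Within the set, a few isoacceptors held nearly all reads. In EV, SerAGA took 38.8% of the pooled Leu and Ser reads, LeuCAG 31.1%, LeuAAG 14.4%, LeuTAG 8.46% and SerGCT 6.15%. In cells, the order was LeuCAG with 38.4%, SerAGA with 19.6%, SerGCT with 17.4%, LeuAAG with 13.4% and LeuTAG with 9.29%. LeuTAA, SerCGA and SerTGA each took under 2% in every library. Among all tRNA isoacceptors, SerAGA ranked 13 by reads in EV and 19 in cells, whereas SerGCT ranked 26 in EV and 20 in cells.

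EV and cells were compared next, over all 9 pairs, with edgeR's quasi-likelihood test on counts scaled by TMM among the tRNAs. Pairs with the same replicate number share an experiment day, and there were 3 replicates. The fit had no term for a difference between EV and cells that varies by day. Its SE and FDR, and the sign-flip tests above, therefore take the 9 pairs as independent. Values are log2FC of EV over cells, and a gene or isoacceptor was called at FDR below 0.05 (Benjamini-Hochberg over all tRNA isoacceptors or genes tested). SerAGA was higher and SerGCT was lower in EV, and both belong to serine but to different codon boxes. These are differences in reads. For tRNAs, the study reports that read coverage and Northern blots differed. It names as the likely reason that the enzyme copying RNA into DNA cannot pass the modified bases of full-length tRNA. Whether this differed between EV and cells for these tRNAs was not tested. Of the 8 isoacceptors tested, 2 were called higher (SerAGA and LeuAAG) and 1 lower (SerGCT). Among all 49 tRNA isoacceptors 55.1% were called, 36.7% higher and 18.4% lower, so the number of calls among the Leu and Ser tRNAs was not large. The median log2FC was 0.26 over the 8 and 0.45 over all 49. This median depended on the scaling and was -0.18 with scaling by the tRNA total. Of all calls 66.7% were higher in EV, against 11.1% with the tRNA total, 33.3% with TMM over all classes and 42.9% with DESeq2, and the changes below are therefore also given relative to the median of all isoacceptors.

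SerAGA reads the TCT, TCC and TCA serine codons after its first anticodon base is modified to inosine. It stood at 352, 685 and 324 RPM in control-EV, at 326, 1144 and 346 RPM in LPS-EV, and at 640, 308 and 1287 RPM in VitD3-EV. In the cells it stood at 93.7, 142 and 714 RPM in control-DC, at 304, 152 and 183 RPM in LPS-DC, and at 232, 334 and 314 RPM in VitD3-DC. The EV value was higher in 7 of 9 pairs (mean ratio 2.22-fold without TMM), and control-DC replicate 3 stood above all other cellular libraries. The log2FC was 1.77 ± 0.29 (SE, 9 pairs, FDR = 4.6e-05), or 1.32 above the median isoacceptor. The call was kept in all 22 alternative settings tried (log2FC 1.18 to 1.98), and relative to the median the value lay between 1.17 and 1.62. In run 1 libraries plus VitD3-DC replicate 2, that is, without replicate 3, the log2FC was 1.86.

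SerGCT, the tRNA for the AGC and AGT codons, had the opposite pattern. It stood at 63.6, 57.8 and 62.3 RPM in control-EV, at 62.2, 262 and 98.3 RPM in LPS-EV, and at 66.2, 35.6 and 134 RPM in VitD3-EV. In the cells it stood at 203, 162 and 239 RPM in control-DC, at 315, 256 and 326 RPM in LPS-DC, and at 174, 210 and 151 RPM in VitD3-DC. Only LPS-EV replicate 2, at 262 RPM, stood within the range of the cells, and it was the 1 pair in which EV was higher than its own cells. The mean ratio of EV to cells was 0.36 without TMM. The log2FC was -0.86 ± 0.21 (SE, FDR = 0.0014), or 1.32 below the median isoacceptor. All 22 alternative settings kept the call (log2FC -1.49 to -0.75, and -1.42 to -1.11 relative to the median).

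The make-up of the Leu and Ser reads does not depend on any scaling and showed the same pair of isoacceptors. SerAGA made up 38.6% ± 9.26 (SD, 9 libraries) of the Leu and Ser reads in EV and 19.2% ± 7.83 in cells, and its share was higher in EV in 9 of 9 pairs. SerGCT made up 6.1% ± 2.23 in EV and 18.3% ± 7.34 in cells, and its share was higher in EV in 0 of 9 pairs. The ranges over libraries still overlapped, at 23 to 51.1% against 11.3 to 37.8% for SerAGA and at 2.96 to 9.93% against 8.5 to 30.9% for SerGCT. SerAGA reads outnumbered SerGCT reads 3.52 to 11.8-fold in every EV library, and in cells the ratio was 0.461 to 2.99, with no overlap between EV and cells. This ratio was chosen after the values of both isoacceptors had been seen and is given as a description.

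**Figure D2:**
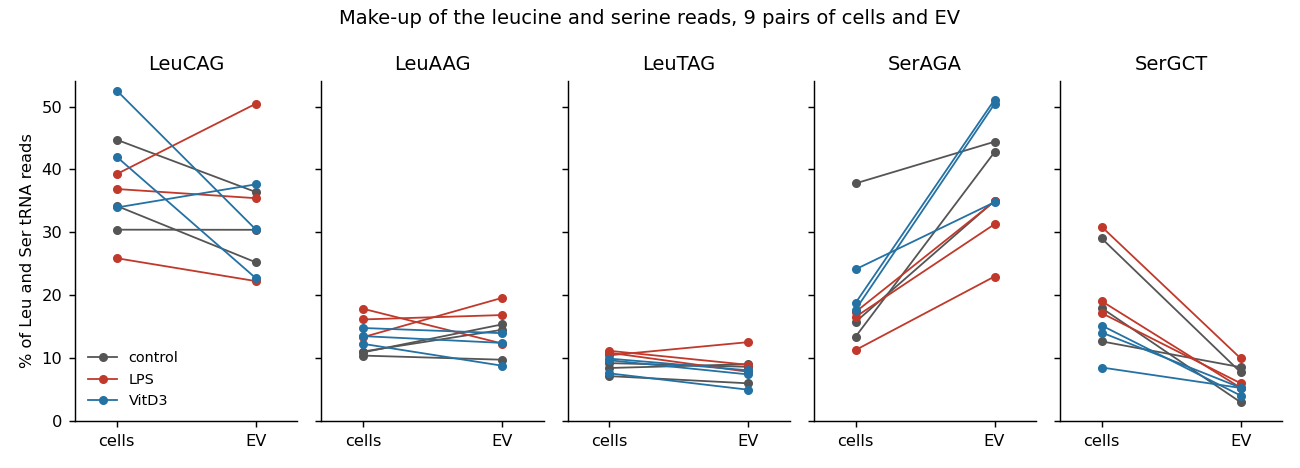
Percentage of the Leu and Ser tRNA reads of a library that belonged to each of the 5 most abundant isoacceptors, in cells and in EV, with a line for each of the 9 pairs, coloured by treatment. All 9 lines rise for SerAGA and all 9 fall for SerGCT, whereas those of LeuCAG, LeuAAG and LeuTAG go both ways.

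The leucine isoacceptors differed less between EV and cells. LeuCAG, which reads the CTG codon, had a median of 333 RPM in EV (208 to 2513) and 520 RPM in cells (239 to 932). LeuAAG had a median of 175 RPM in EV (71.1 to 613) and 196 RPM in cells (77.2 to 296), and LeuTAG 92.8 (43.6 to 389) and 134 RPM (64.3 to 205). The groups overlapped over most of their range for all 3. LeuAAG was called with a log2FC of 0.73 ± 0.24 (SE, FDR = 0.013), which is 0.28 above the median isoacceptor, and the call was lost in 11 of 22 alternative settings (log2FC 0.12 to 0.86), such as without LPS replicate 2 (0.32). LeuCAG (0.45 ± 0.23) and LeuTAG (0.48 ± 0.23) were not called and stood at the median (0 and 0.026 above it). Their log2FC turned to -0.19 and -0.14 with scaling by the tRNA total, where the median itself was -0.18.

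The remaining isoacceptors had few reads. LeuTAA ranged from 0 to 28 reads in EV and from 114 to 226 in DC, with a log2FC of -0.38 ± 0.34 (SE). SerCGA ranged from 0 to 8 reads in EV, with a log2FC of -0.46 ± 0.41. SerTGA ranged from 1 to 8 reads in EV, with a log2FC of 0.066 ± 0.38, and its sign changed in 14 of 22 alternative settings. None of the 3 was called. SerTGA had 27 reads over all EV libraries, against 4691 for SerAGA, whose printed gene differs from the SerTGA gene at 2 bases. Relative to the median isoacceptor, LeuTAA (-0.83), SerCGA (-0.92) and SerTGA (-0.39) were below it in all settings, as the plot of EV against cells shows. LeuTAA reached FDR below 0.05 in 4 of 22 settings, SerCGA in 2 and SerTGA in 0.

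**Figure D3:**
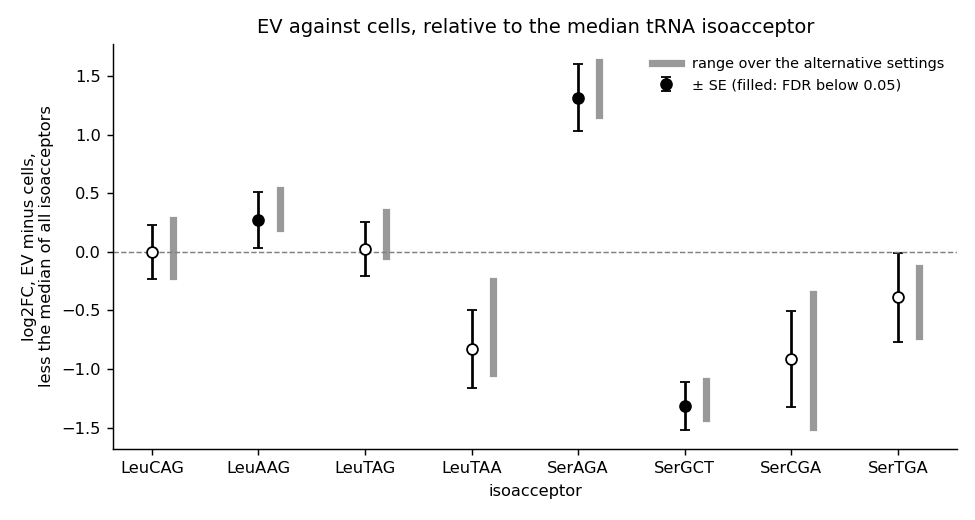
log2FC of EV over cells for each isoacceptor after the median log2FC of all tRNA isoacceptors was subtracted, with points for the values ± SE (filled where FDR was below 0.05) and grey bars for the range over the alternative settings. SerAGA (1.32) is the highest and SerGCT (-1.32) the lowest of the 8, and the grey bars of LeuCAG and LeuTAG are those that cross 0.

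Each treatment was also looked at on its own. SerAGA was called in EV over cells for control (log2FC 1.79 ± 0.48, SE, FDR = 0.0024), LPS (1.82 ± 0.45, FDR = 5.8e-04) and VitD3 (1.70 ± 0.45, FDR = 0.0035), at 3 pairs each, where 30.6%, 36.7% and 22.4% of all isoacceptors were called. SerGCT had a log2FC of -0.96 ± 0.42 for control, -0.83 ± 0.42 for LPS and -0.79 ± 0.43 for VitD3 and was not called in any of them. These single-treatment calls were less stable. The SerAGA call was lost in 10 of 22 alternative settings for control (log2FC 0.99 to 2.62), in 5 for LPS (1.27 to 2.10) and in 8 for VitD3 (1.14 to 2.23), and leaving out LPS replicate 2 ended all 3 (1.19, 1.31 and 1.40). SerGCT gained a call in 10, 7 and 4 settings. In a fit over all 18 libraries, the EV-to-cell difference was not found to differ between LPS and control or between VitD3 and control for any of the 8 isoacceptors. In both comparisons there were 0 calls by edgeR's quasi-likelihood test, 0 at an unadjusted p below 0.05 and 0 by DESeq2, and 0% of all isoacceptors were called.

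Other long-arm tRNAs did not move together. LeuCAA, which reads TTG codons, was lower in EV in 9 of 9 pairs (log2FC -1.87 ± 0.20, SE, FDR = 8.4e-07). The selenocysteine tRNA, which seryl-tRNA synthetase charges with serine before the serine is converted, was higher (log2FC 1.13 ± 0.24, FDR = 5.6e-04). It was higher in EV in 6 of 9 pairs (mean ratio 1.42-fold without TMM). It was called for control (FDR = 0.013) and LPS (FDR = 0.018) alone but not for VitD3 (FDR = 0.12). The median of all 49 isoacceptors was 0.45, and values of LeuCAA and the selenocysteine tRNA in the alternative settings are not given here. Of the 41 isoacceptors outside the Leu and Ser genes, these 2 included, 16 were called higher and 8 lower in EV, with a median log2FC of 0.46. Among the 8 polymerase III and RNA-processing RNAs listed with them, tested over all RNA classes, 7 were higher in EV and 0 lower, where 11.5% of all 1604 RNAs were higher. They included Rpph1, the RNA of the RNase P that trims the 5′ ends of tRNA precursors (log2FC 4.2 ± 0.39, FDR = 1.1e-12), whereas Rmrp, the RNA of the related RNase MRP, was not called (0.14 ± 0.31).

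Single genes varied within an isoacceptor. Of 42 members tested, 17 were called, 4 higher and 13 lower in EV, against 39.8% of all 337 tRNA genes (9.79% higher and 30% lower). The median log2FC was -0.35 over the members and -0.42 over all tRNA genes, on the scaling of single genes, which differs from that of the isoacceptor sums. A gene was tested if it reached 10 reads over all 18 libraries, so genes nearly absent from EV passed through their cellular reads alone. Of the 31 members with at least 10 reads in EV, 4 were called higher and 8 lower, and of the 11 with fewer, 0 were called higher and 5 lower. LeuCAG spanned the widest range, from -3.61 to 1.12, with 2 genes higher and 2 lower. SerGCT had 5 genes lower and 0 higher, and SerAGA 2 higher and 1 lower. LeuTAA had 2 genes lower, LeuAAG, LeuTAG and SerCGA 1 each, and SerTGA had 0 calls among 3 genes. The 2 LeuTAA calls, the SerCGA call, the lower SerAGA call and the lowest LeuCAG value came from genes with 0 to 8 EV reads. Those genes were tested only because of their cellular reads, so their calls are not read as differences between genes.

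The 5 members with the lowest p-values were all lower in EV. chr13.tRNA964-LeuCAG had 58 to 182 reads in each DC library (95, 107 and 94 in control-DC, 143, 78 and 182 in LPS-DC, and 86, 58 and 83 in VitD3-DC). In EV it had 6 reads in LPS-EV replicate 1, 1 read in VitD3-EV replicate 1 and 0 in the other 7 libraries, and it was tested only because of its reads in cells. Its log2FC was -3.61 ± 0.53 (SE, FDR = 1.3e-06), and its share of the LeuCAG reads was 2.06% in cells and 0.186% in EV. The chr13.tRNA964-LeuCAG gene is n-TLcag10 in RefSeq, at chr13:23453432-23453514. The other 4 were SerGCT genes. chr13.tRNA982-SerGCT ranged from 0 to 3 reads in EV and from 28 to 159 in DC (log2FC -2.79 ± 0.48, FDR = 1.5e-05). chr13.tRNA115-SerGCT had 6 to 36 reads in EV and 396 to 1083 in DC (-1.82 ± 0.27, FDR = 1.3e-06). chr13.tRNA982-SerGCT, chr13.tRNA115-SerGCT and the 2 genes that follow kept their calls in all 21 alternative settings. chr13.tRNA964-LeuCAG did too, but it passed the filter through its cellular reads, so its call is not read as a difference between genes. Other lower calls were less stable. The call was lost in 17 of 21 settings for the second LeuCAG gene called lower and in 14 for the LeuTAG gene. It was lost in 11 for the SerAGA gene called lower, in 9 for the SerCGA gene, and in 0 to 6 for the remaining lower calls.

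The most counted SerGCT gene, chr2.tRNA1509-SerGCT (n-TSgct7, chr2:119046750-119046831), had 9 to 56 reads in EV and 514 to 1428 in DC. Its log2FC was -1.64 ± 0.26 (FDR = 3.6e-06). chr11.tRNA1821-SerGCT (n-TSgct3, chr11:69063042-69063123) had 9 to 51 reads in EV and 496 to 1410 in DC, with a log2FC of -1.49 ± 0.26 (FDR = 1.4e-05). The 4 SerGCT genes with most reads were all called lower. Of these, chr2.tRNA1509-SerGCT and chr11.tRNA1821-SerGCT were counted alike. The smaller of both counts was 0.911 of the larger at the median in EV and 0.936 in DC. Their calls are therefore not treated as independent. The 2 least counted, chr1.tRNA791-SerGCT (0.25 ± 0.46) and chr13.tRNA988-SerGCT (0.23 ± 0.54), were not called.

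A further gene, outside the rule for naming and picked after its values were seen, had no EV reads at all. chr13.tRNA1003-LeuTAA (n-TLtaa2, chr13:21848022-21848104) had 5 to 39 reads in each of the 9 DC libraries, 215 in all, and 0 in the 9 EV libraries, so that it too was tested only because of its reads in cells. Against a floor of 3 reads over the pooled EV libraries, its share of tRNA reads, with no TMM factor, was 8.54-fold lower in EV. This value covers counting error in EV only and takes the cellular count without error.

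The 4 genes called higher in EV were 2 pairs whose members were counted alike. chr11.tRNA394-SerAGA (n-TSaga4, chr11:69037477-69037558) had 65 to 361 reads in EV and 550 to 2501 in DC (log2FC 1.04 ± 0.29, FDR = 0.0042). chr4.tRNA16-SerAGA, whose sequence is printed above, had 65 to 359 reads in EV and 400 to 2361 in DC (1.29 ± 0.30, FDR = 8.9e-04). chr1.tRNA701-LeuCAG and chr1.tRNA703-LeuCAG each had 2 to 42 reads in EV and log2FC of 1.12 (± 0.39, FDR = 0.021). The first held 45.7% and the second 45.4% of the SerAGA reads in EV. Without replicate 1, the calls of both LeuCAG genes were lost.

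**Figure D4:**
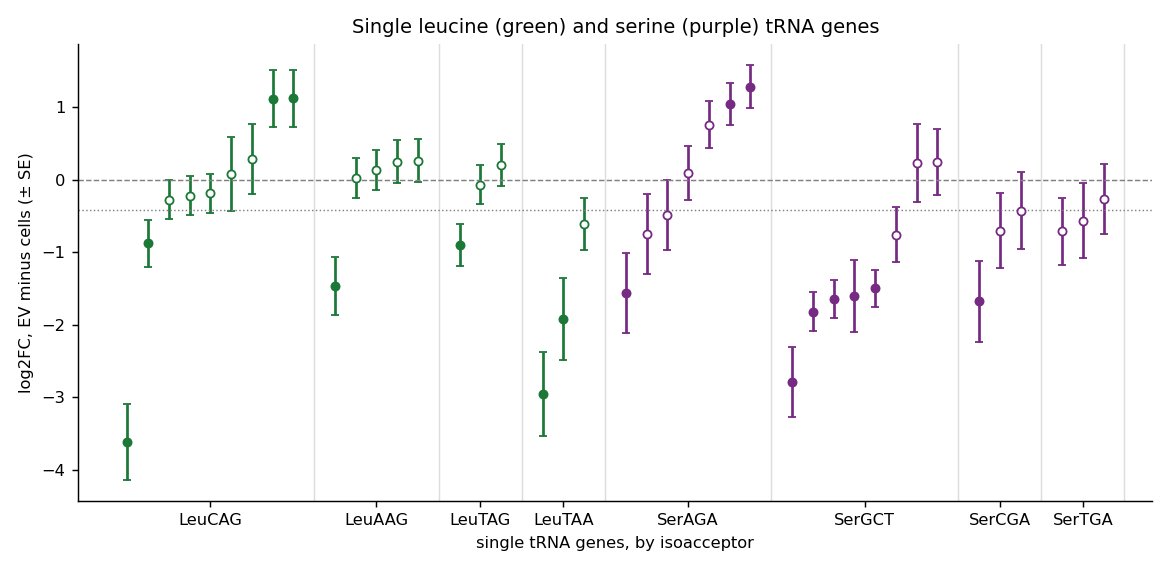
log2FC of EV over cells (± SE) for the single genes, ordered within each isoacceptor, in green for leucine and purple for serine, filled where FDR was below 0.05. A dashed line marks 0 and a dotted line the median of all tRNA genes (-0.42), and LeuCAG runs from -3.61 to 1.12 while 5 of 8 SerGCT genes lie filled below the median. A LeuCAG gene with 10 reads in all is left out because no usable SE could be derived for it.

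How the reads were assigned limits the account of single genes. The aligner was set to report up to 3 positions per read, and near-identical genes can then share reads. chr1.tRNA701-LeuCAG and chr1.tRNA703-LeuCAG had the same count in 16 of 18 libraries, all 9 EV libraries among them. chr11.tRNA394-SerAGA and chr4.tRNA16-SerAGA had the same count in 6 of 9 EV libraries but in 0 of 9 DC libraries, where the smaller of both counts was 0.858 of the larger at the median. The most counted LeuCAG gene, chr8.tRNA1013-LeuCAG, had 69 to 215 reads in EV, and chr8.tRNA416-LeuCAG 69 to 217, with a median ratio of 0.99. Such likeness also crossed anticodons. The most counted LeuAAG gene, chr11.tRNA2021-LeuAAG (21 to 111 reads in EV), and the most counted LeuTAG gene, chr11.tRNA401-LeuTAG (21 to 110), had a median ratio of 0.977 in EV and 0.928 in DC. The counts of LeuAAG and LeuTAG are therefore not treated as independent measurements. None of the most counted leucine genes was called in EV against cells, with a log2FC of 0.026 ± 0.27 (SE) for chr11.tRNA2021-LeuAAG, -0.27 ± 0.27 for chr8.tRNA1013-LeuCAG, -0.070 ± 0.27 for chr11.tRNA401-LeuTAG and -0.61 ± 0.36 for chr10.tRNA1326-LeuTAA. The most counted genes of the minor serine isoacceptors, chr10.tRNA698-SerCGA (-0.70 ± 0.51) and chr10.tRNA1105-SerTGA (-0.57 ± 0.52), were not called either. With only the most counted gene of each isoacceptor, SerAGA kept a log2FC of 1.48 and SerGCT of -1.22, and both were called. Both of these genes were counted alike with another gene of their isoacceptor. This setting therefore does not remove shared reads and cannot show their effect.

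LPS and VitD3 were compared with control, and with each other, to ask whether stimulation of the DC changed these tRNAs in EV or in cells. No isoacceptor was called in any of the 6 contrasts by edgeR's quasi-likelihood test, by the likelihood ratio test or by DESeq2. Of the 8 isoacceptors, 0 had an unadjusted p below 0.05 in the 3 EV contrasts. In cells, 1 did for LPS against control, 2 for VitD3 against control and 0 for LPS against VitD3. Among all isoacceptors, 0% were called for LPS and for VitD3 against control in EV, 2.13% for LPS against VitD3 in EV, 0% for LPS against control in cells, 10.2% for VitD3 against control in cells and 2.04% for LPS against VitD3 in cells.

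In EV, log2FC ran from -0.47 to 0.48 for LPS over control and from -1.02 to 0.42 for VitD3 over control, with standard errors of 0.41 to 1.29. SerAGA had a log2FC of -0.30 ± 0.41 for LPS and 0.073 ± 0.42 for VitD3, so that small changes could not be told from the spread. SerGCT had values of 0.42 ± 0.45 and -0.35 ± 0.45. LeuTAA, at -1.02 ± 0.70 for VitD3 in EV, was the furthest from 0 but rested on 0 to 8 reads per VitD3-EV library against 7 to 15 in control-EV. Relative to the median of all isoacceptors in that contrast (-0.32), LeuTAA stood at -0.71 and SerTGA at 0.74. In cells, where counts were higher, the standard errors were 0.20 to 0.42.

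The 3 values with an unadjusted p below 0.05 had a negative log2FC in treated cells. The median of all isoacceptors was negative too, at -0.29 for LPS and -0.24 for VitD3 over control in cells. Relative to it, SerCGA stood at -0.37 for LPS, and SerGCT at -0.45 and SerTGA at -0.36 for VitD3. SerCGA stood at 4.6 ± 2.11 RPM in LPS-DC and 4.5 ± 0.653 RPM in control-DC (SD, n = 3), and its log2FC was -0.66 ± 0.28 (SE, FDR = 0.24) with TMM scaling and 0.0063 with scaling by the tRNA total. SerGCT stood at 178 ± 30 RPM in VitD3-DC and 201 ± 38.4 RPM in control-DC, with a log2FC of -0.69 ± 0.31 (FDR = 0.16). SerTGA stood at 3.82 ± 0.988 RPM in VitD3-DC and 4.1 ± 0.502 RPM in control-DC, with a log2FC of -0.60 ± 0.27 (FDR = 0.16). All 3 failed the correction, and the libraries of the groups overlapped in each.

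**Figure D5:**
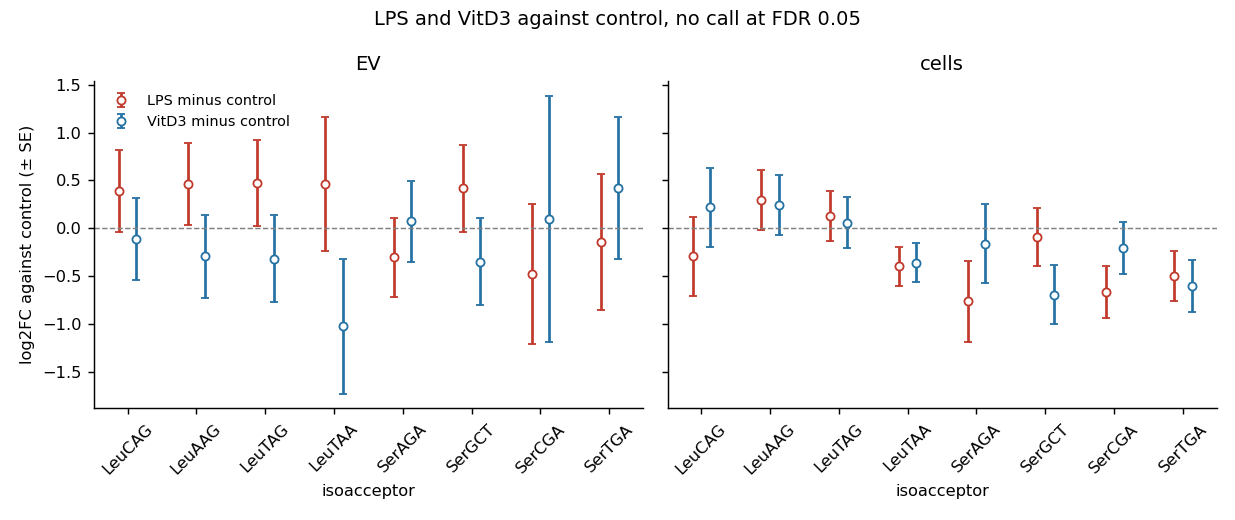
log2FC of LPS and of VitD3 over control for each isoacceptor in EV and in cells (± SE), open because FDR was above 0.05 for all. The error bars are wide in EV, widest for SerCGA under VitD3 (SE 1.29), and narrower in cells, where SE is at most 0.42.

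Of single genes, 31 members were tested in EV and 41 in cells. By edgeR's quasi-likelihood test 0 were called in each of the 3 EV contrasts, with 1, 1 and 2 at an unadjusted p below 0.05 for LPS, VitD3 and LPS against VitD3, and 0 were called by DESeq2. In cells 0 were called for LPS against control (2 at an unadjusted p below 0.05) and for VitD3 against control (3), where 0% of all tRNA genes were called. For LPS against VitD3 in cells 1 member was called, of 3.28% among all tRNA genes.

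The called gene was chr13.tRNA992-SerAGA, a minor SerAGA gene. It had 7, 3 and 14 reads in LPS-DC, 29, 13 and 37 reads in VitD3-DC, and 37, 18 and 23 reads in control-DC. In raw reads, LPS-DC replicate 3 lay 1 read above VitD3-DC replicate 2, and otherwise the LPS libraries were lower. LPS-DC replicate 3 was also the deeper of these libraries, with 13181561 tRNA reads against 8165200. The log2FC of LPS-DC over VitD3-DC was -1.77 ± 0.40 (SE, FDR = 0.037). Over control-DC it was -1.75 ± 0.40 (FDR = 0.16). In EV it had 8, 0 and 15 reads in control-EV and 0 in all LPS-EV and VitD3-EV libraries, so that it was tested there only because of control-EV. Against a floor of 3 reads over each group (counting error only) its share of tRNA reads was 5.34-fold lower for LPS and 3.81-fold lower for VitD3. Without control-EV replicate 3, a comparison added after the data had been seen, it was 2.76-fold and 1.97-fold lower. The control-EV counts were taken without error, and the latter values rest on 8 reads in replicate 1, so none of these is a lower bound. These EV contrasts were not called (FDR = 0.42 and 0.99). The call in cells was lost in 11 of 20 alternative settings, among them without replicate 1, without replicate 2 and without any 1 of the 6 libraries (log2FC -2.04 to -1.39), and the gene held 0.789% of the SerAGA reads in cells.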

How the data were processed

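The deposited table holds whole-number read counts per RNA gene and library, which the authors made and did not normalize. Per the study's methods, small RNA reads were trimmed with cutadapt 1.8, aligned to mm10 with gsnap and counted by strand with HTSeq 0.6.1p1, with tRNA positions from the UCSC repeat track. tRNA rows, or their sums by anticodon, that reached 10 reads in a fit were tested with edgeR 4.0.16 (two-sided quasi-likelihood test, TMM, prior count 2). The fits were run on counts simulated for all classes other than rRNA together, with no day or culture effect. That check does not cover the scaling or error rate among the tRNAs alone. Treatment contrasts were fitted in EV and cells separately with replicate number as a block, and EV against cells with the 9 cultures as a block. FDR is Benjamini-Hochberg over all tRNAs tested. RPM values carry no TMM factor. The SE of an edgeR log2FC was derived from its test, as the size of the log2FC over the square root of the F statistic. SE, intervals and floors of 3 counts cannot account for PCR duplicates, since the counts carry no molecular identifiers. Of 18 replicate pairs, 0 held identical counts.

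Named were every isoacceptor, its most counted gene where abundant, up to 5 genes per contrast with the lowest p among those called, and genes counted alike (median count ratio of at least 0.9 in EV). Members, lists and this rule were chosen with earlier results of these data known. Alternatives were the likelihood ratio test, DESeq2 1.42.0, other scalings and filters, other denominators of the shares, no block, and leaving out replicates or libraries. Leaving out single cultures, or both EV libraries of fewest tRNA reads with their cells, was added after the data had been seen.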

Additional observations from a re-analysis of the deposited data

How the results depend on the processing

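In other scalings, filters and tests of EV against cells, the number of isoacceptors called was 2 to 4 (3 reported), and 2 to 5 when a replicate or culture was left out, with 5 without control replicate 3. Single genes called were 14 to 18 (17 reported), with 14 without the 2 EV libraries of fewest tRNA reads and their cells, and 9 to 16 when a replicate or culture was left out, with 9 without replicate 1. Relative to the median isoacceptor, SerAGA and SerGCT kept their direction in all settings. LeuCAG stood at -0.011 relative to the median with scaling by the tRNA total and at 0.0093 with TMM over all classes. The values that follow are log2FC with no median subtracted. LeuCAG turned to -0.19 with scaling by the tRNA total, -0.082 with TMM over all classes and -0.036 without these 2 EV libraries and their cells (-0.096 to 0.54 when a replicate or culture was left out), and LeuTAG to -0.14 and -0.059 under both scalings. SerTGA turned to -0.42 with DESeq2, -0.37 with DESeq2's size factors, -0.60 with scaling by the tRNA total, -0.45 with TMM over all classes, -0.22 with at least 1 read, -0.18 with filterByExpr, -0.12 with the most counted gene, -0.35 without the 2 EV libraries (-0.33 to 0.27 when a replicate or culture was left out). Without these libraries SerAGA had a log2FC of 1.23 and SerGCT of -1.42, both called.

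Of treatment contrasts, LPS-DC against VitD3-DC gave 2 isoacceptors with TMM over all classes and 0 to 1 when a replicate or library was left out. For single genes it gave 0 with no replicate block, with scaling by the tRNA total and with filterByExpr, 4 with TMM over all classes, and 0 to 1 when a replicate or library was left out. LPS-EV against control-EV gave 1 gene with the likelihood ratio test. LPS-DC against control-DC gave 1 with the likelihood ratio test, 2 with TMM over all classes, and 0 to 5 when a replicate or library was left out (5 without replicate 3, 2 without control-DC replicate 3). VitD3-DC against control-DC gave 0 to 3, with 3 without replicate 3 and 3 without control-DC replicate 3. SerCGA in LPS-DC turned to 0.0063 with scaling by the tRNA total, and in VitD3-DC SerTGA turned to 0.011 with the most counted gene (-0.78 to 0.060 when a replicate or library was left out) and SerGCT to 0.023 (range -0.86 to 0.023). The log2 ratios of the share of tRNA reads ranged, without a replicate each, from -0.25 to 0.30 for EV against cells, -0.27 to 1.21 for VitD3-EV and 0.39 to 0.89 for LPS-EV against control-EV, -0.82 to 1.11 for LPS-EV against VitD3-EV, -0.13 to 0.98 for LPS-DC and 0.26 to 0.72 for VitD3-DC against control-DC, and -0.40 to 0.26 for LPS-DC against VitD3-DC. The cause of these changes was not tested.

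As to pairing, each treatment's mean was subtracted from the log2 levels of the tRNA rows, and libraries that share a replicate number were then correlated. Pearson's r of these residuals lay between -0.344 and 0.478 among EV, where it passed 0.1 for 5 of 9 pairs. Among cells it lay between 0.0804 and 0.424 and passed 0.1 for 8 of 9. For libraries of other treatment and other number, the mean r was -0.0479 in EV and -0.14 in cells. The number was kept as a block because the study's methods model the day. With no replicate block, EV against cells gave 4 isoacceptors and 17 genes, SerAGA had a log2FC of 1.64 and SerGCT of -0.83, the calls of both were kept, and the interactions gave 0. Limits are the low EV counts of LeuTAA, SerCGA, SerTGA and most single genes, and reads shared among near-identical genes. Sequencing run is another, which in EV cannot be told apart from replicate 3. In cells, run differs from replicate 3 by 1 library (VitD3-DC replicate 2). A further limit is the smallest library, LPS-EV replicate 2, without whose culture LeuAAG had a log2FC of 0.32. The poor sequencing of modified tRNA that the study describes, and the days shared by the pairs of EV and cells, are limits too.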
